A study of Neurospora crassa with 12 samples.

Results

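In the WT strain of Neurospora crassa, 158 of the 9730 genes in the count table (1.62%) had a transcript level at least 4 times higher on histidine and on leucine than on Avicel medium. They were chosen on CPM (the count of a gene scaled to the same total in every library) in the WT libraries alone. The mean of the 2 WT cultures had to be at least 20 CPM on each amino acid and, with 1 added to each mean, at least 4 times the WT mean on Avicel, and the amino acid means had to be less than 6-fold apart. The WT levels of these genes are therefore a description of the choice and were not tested, while the Δclr-5 libraries took no part in it.

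A fungus given an amino acid as its nitrogen source takes it up by permeases, removes the amino group by transaminases, oxidases or deaminases, and burns or rebuilds the remaining carbon chain. Ammonium and other favoured nitrogen sources repress much of this machinery in Neurospora, a control known as nitrogen metabolite repression. Histidine and leucine have different breakdown routes, of which that of leucine leads through isovaleryl-CoA and methylcrotonyl-CoA to acetyl-CoA and acetoacetate. Clr-5 is a transcription factor that the study examined for its part in amino acid metabolism and cellulose degradation.

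Precultured mycelium of Δclr-5 (a deletion mutant of NCU05383 from the Fungal Genetics Stock Center) and of WT (FGSC 2489) was moved to 3 media that all held 2% Avicel, a microcrystalline cellulose. The histidine and leucine media were Vogel's salts without nitrogen, supplemented with 50 mM of the amino acid, and the third medium, called Avicel here, was the usual Vogel's salts, whose nitrogen is ammonium nitrate. Each of the 6 groups had 2 independent cultures, induced for 8 h by the sample labels, while the study's methods give a shorter time. The amino acid thus replaced the nitrogen salt, so the presence of the amino acid and the absence of ammonium nitrate cannot be told apart. The mutant is 1 strain, and with 2 cultures a group the spread is that between cultures. In the fit below it was estimated over all 6 groups together, and not for the groups compared alone.

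Transcripts of clr-5 itself (NCU05383, listed as col-24 in the reference) had 1.94 and 1.54 CPM in Δclr-5 on histidine against 56.1 and 46.9 in WT, 3.09 and 2.81 in Δclr-5 on leucine against 21.4 and 17.9 in WT, and 1.76 and 1.91 in Δclr-5 on Avicel against 27.8 and 21.5 in WT. All 6 mutant libraries lay below all 6 WT libraries. Library totals ran between 16797962 and 20381308 counts. The cultures of Δclr-5 on Avicel stood apart from each other: their chi-square per gene against counting noise was 230.3, against 15.6 to 94.0 in the other 5 groups. The labels call all samples mycelium, and the other cell type such cultures can hold is conidia. The summed level of 9 conidia markers (ccg-1, itself a member, left out) was 83578 and 70412 CPM in Δclr-5 on histidine against 823 and 1139 in WT, 1784 and 2181 in Δclr-5 on leucine against 799 and 793 in WT, and 3537 and 35757 in Δclr-5 on Avicel against 262 and 293 in WT. By mean, 9 of the 9 markers were higher in Δclr-5 on histidine and on Avicel and 8 on leucine, and none was at 0 in a group. Nearly all of the mutant's sum on histidine and on Avicel was eas, the hydrophobin gene. Its mean was 76435 CPM in Δclr-5 on histidine against 798 in WT, and 18444 CPM in Δclr-5 on Avicel against 105 in WT. The highest of the other markers in the mutant were fl on histidine, at 214 CPM against 32.1 in WT, and con-8 on Avicel, at 424 CPM against 53.5 in WT. The part of these markers in the results below was not tested.

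In Δclr-5, the 158 genes together took 6.42% and 6.58% of all counts on histidine and 9.22% and 9.54% on leucine, against 1.45% and 2.44% on Avicel. In WT the same genes took 6.20% and 8.14% on histidine and 6.60% and 5.98% on leucine, against 0.667% and 0.612% on Avicel. The summed share in the mutant was thus within or near that of WT on histidine and larger on leucine and on Avicel. WT libraries chose the genes, and the rule required a low WT level on Avicel. Abundant genes weigh most in such a sum. On leucine ccg-1 alone had a mean of 13990 CPM in Δclr-5 against 3584 CPM in WT. On leucine in plain CPM, the scale of these shares, both Δclr-5 cultures lay above both WT cultures in 83 of the 158 genes and below in 46. Over all genes with counts these orders held for 54.2% and 18.5%. In the fit described below, which scales the libraries otherwise, 81 of the 158 genes were higher in Δclr-5 than in WT on leucine. Their median log2 fold change there was 0.04, against 0.03 over all genes. The ratio of the Δclr-5 mean on the amino acid to that on Avicel, with 1 added, had a median of 4.11 on histidine (range 0.249 to 61.7) and of 4.41 on leucine (0.501 to 194). In WT, where it chose the genes, the same ratio had a median of 9.23 on histidine (4.06 to 396) and of 7.86 on leucine (4.01 to 512). By mean, 83 of the genes were higher on histidine than on leucine in WT and 75 the other way round.

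**Figure D1:**
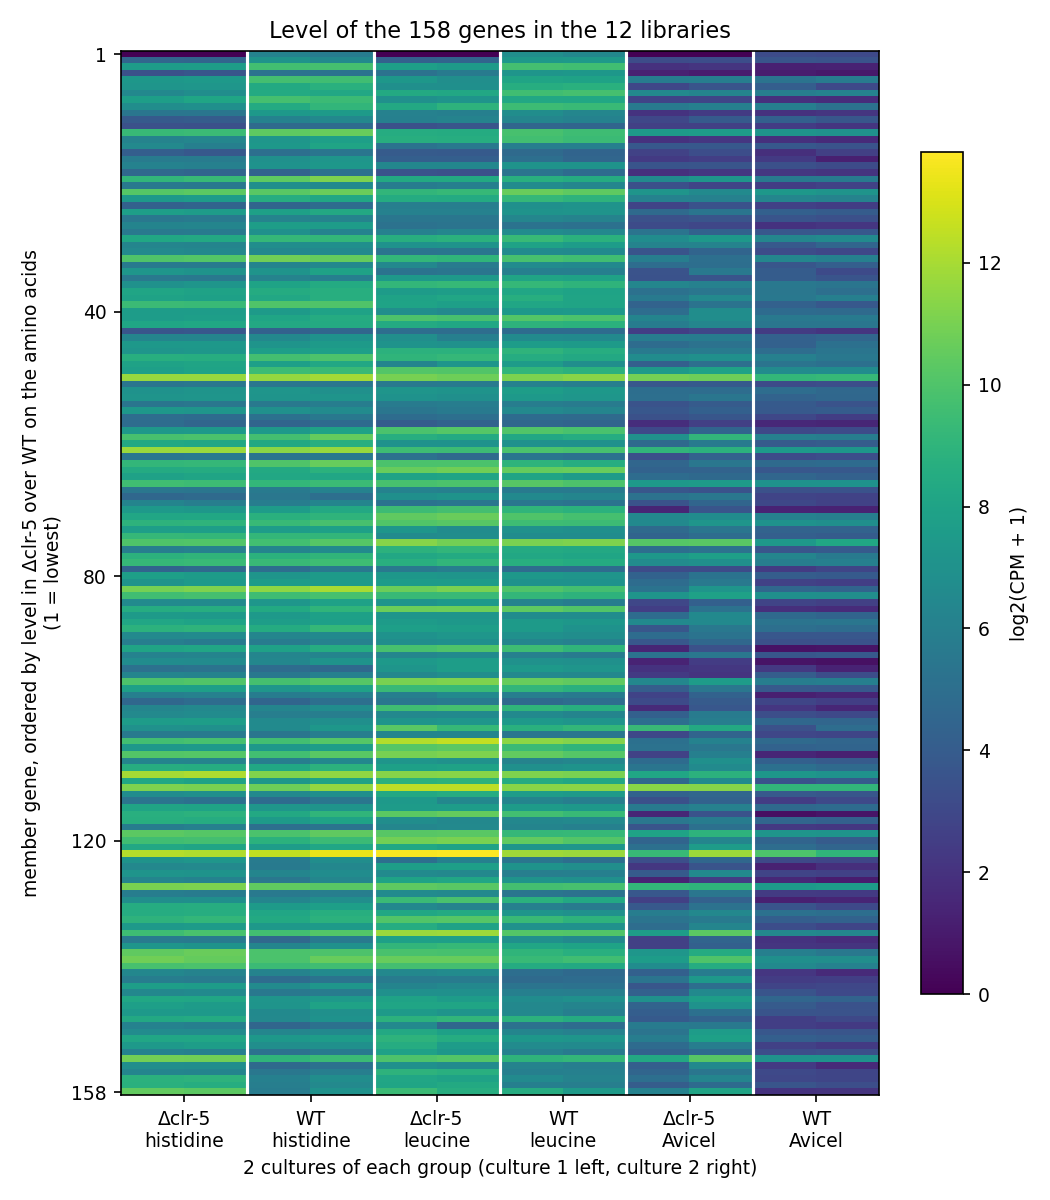
Heat map of log2(CPM + 1) of the 158 genes (rows, ordered by their level in Δclr-5 over WT on the amino acids, lowest at the top) in the 12 libraries (columns, 2 cultures a group). The amino acid columns are brighter than the Avicel columns of the same strain in most rows, the top row (matA-1) is dark in all Δclr-5 columns, and culture 2 of Δclr-5 on Avicel is brighter than culture 1 in many rows.

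Genes lay close to each edge of the choice on both sides. The members with the lowest level on either amino acid in WT were NCU09473 (20.5 CPM), NCU07241 (21.9 CPM) and NCU00017 (22.3 CPM), and NCU01340 (19.8 CPM), NCU09868 (17.4 CPM) and NCU05683 (17.3 CPM) missed the level alone. On histidine, NCU04572, NCU01555 and NCU10507 were inside at 4.06, 4.12 and 4.20 times the Avicel level, and NCU09085, NCU09654 and NCU02378 outside at 3.99, 3.93 and 3.93 times. On leucine, NCU05691, ubi and acw-6 were inside at 4.01, 4.03 and 4.06 times, and NCU08856, NCU03893 and NCU09536 outside at 3.996, 3.98 and 3.95 times. The amino acid means of NCU02628, NCU05089 and NCU00984 were 5.70, 5.43 and 5.24 times apart, and those of NCU10040, NCU02127 and NCU02888, left out for this alone, were 6.12, 6.30 and 7.10 times apart. Counts of genes that missed a single condition were 28 for the level, 120 for histidine, 200 for leucine and 16 for the distance between the amino acids.

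Most of the genes also rose on the amino acids when clr-5 was deleted. On histidine, 124 of the 158 (78.5%) were higher in Δclr-5 than on Avicel in the same strain, beside 27.2% of the 8805 genes tested, and 3 were lower, beside 27.6%. On leucine, 136 (86.1%) were higher in Δclr-5 than on Avicel, beside 19.5% of all genes tested. Calls needed an adjusted p below 0.05 in edgeR's quasi-likelihood test and a log2 fold change of 0.5 or more in size. Fitted changes are given as log2 fold change ± standard error. These tests compared mutant libraries, which did not choose the genes, and both share the Avicel cultures of the mutant. WT libraries still entered the filter, the scaling and the estimate of spread. The median log2 fold change of the 158 genes was 1.74 on histidine (range -2.40 to 5.85) and 1.98 on leucine (-1.17 to 7.65), against 0.03 and 0.02 over all genes tested. In edgeR 0 members were lower on leucine, beside 17.8% of all genes tested, where 1 had an unadjusted p under 0.05 and a negative change, and DESeq2 called 1 lower. Scaling by library size alone moved the median of all genes to 0.38 on histidine and 0.23 on leucine, and moved all genes called higher and lower on histidine to 39.5% and 19.1%.

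**Figure D2:**
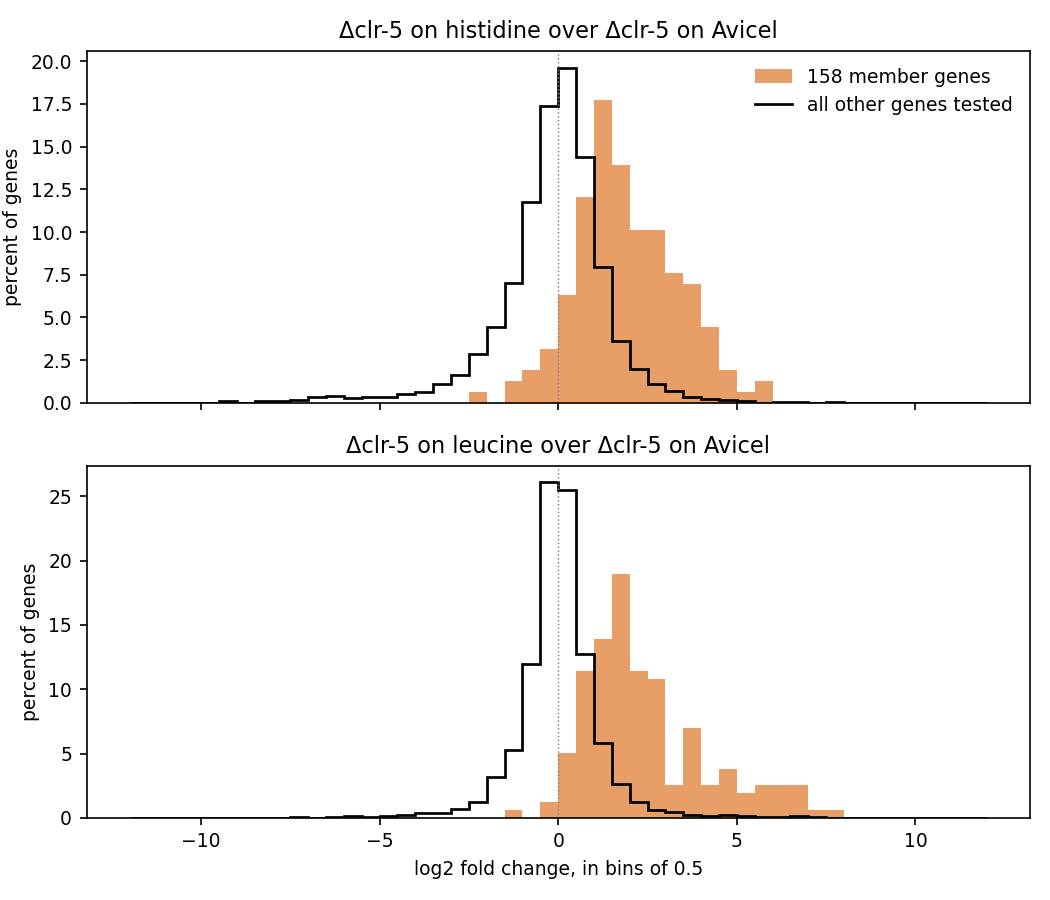
Histograms of log2 fold changes (x axis, bins of 0.5) in Δclr-5 on histidine (upper panel) and on leucine (lower panel) over Δclr-5 on Avicel, as percent of the 158 genes (filled) and of all other genes tested (line). The filled bars centre at 1.74 and 1.98, to the right of the line.

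The 158 genes differed between the Avicel cultures of the mutant more than all genes did. In culture 2 of Δclr-5 on Avicel, 55 of the 158 (34.8%) had at least 2 times the level of culture 1, with 1 CPM added, and the median ratio of culture 2 to culture 1 was 1.57. Over all genes with counts that median ratio was 1.11, and 7.75% were 2-fold apart either way. In the other 5 groups between 0 and 4 of the 158 were that far apart. The same culture held 35757 CPM of the conidia markers against 3537 CPM in culture 1, and by group mean nearly all of that sum was the 1 gene eas. The part of this difference in the levels of these genes was not tested. Without culture 2, 139 of the 158 were called higher on histidine, 121 of them called with all libraries too, and 149 on leucine, 135 of them called with all libraries too. Without culture 1, 124 were higher and 5 lower on histidine, and 134 were higher on leucine.

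**Figure D3:**
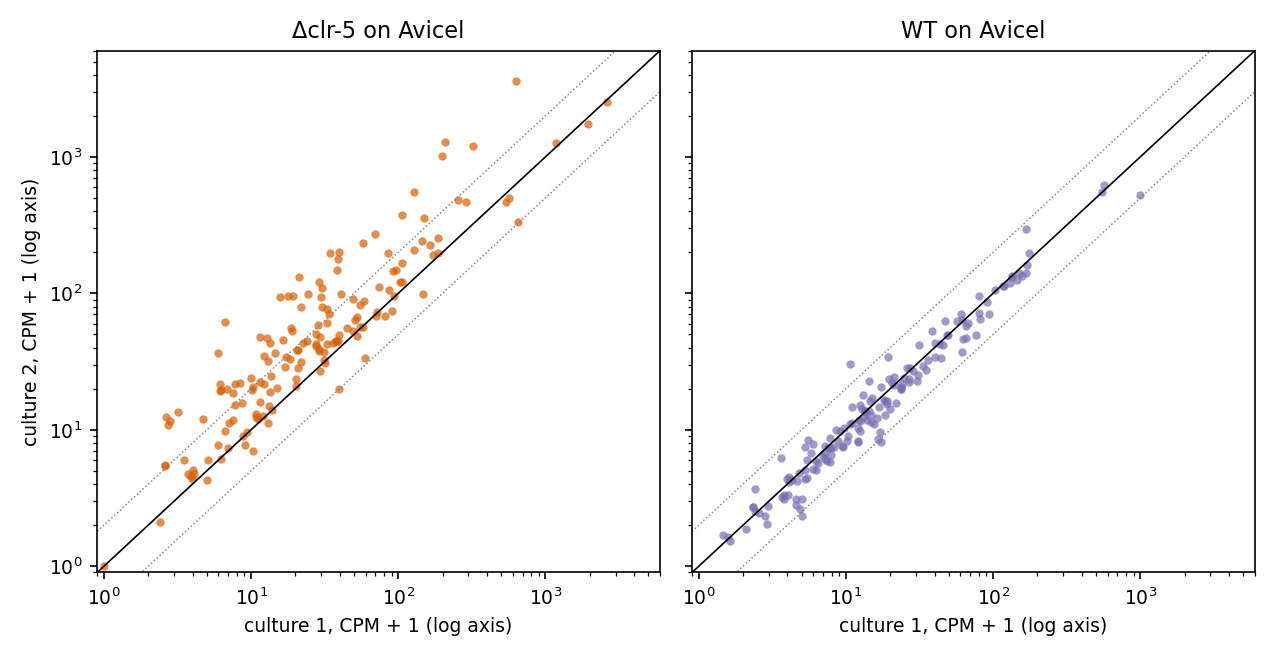
Level of each of the 158 genes in culture 1 (x axis) and culture 2 (y axis) on Avicel, CPM + 1 on log axes, in Δclr-5 (left) and WT (right), with the line of equality and dotted lines at 2-fold. In Δclr-5, 55 points lie on or above the upper dotted line, while 3 points in WT lie 2-fold or more from equality.

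The thresholds that chose the genes in WT were met in Δclr-5 by 53 of the 158 (33.5%), beside 0.668% of all 9730 genes. All genes that met them in the mutant numbered 65, so 81.5% of these were members. The condition on histidine was missed by 74 members, that on leucine by 74, the level of 20 CPM by 11 and the distance by 8. Of the 105 members that missed a condition, 62 had a mean on Avicel at least 2 times higher in Δclr-5 than in WT, and 85 kept more than 0.5 of the WT level on both amino acids (59 had both). Such a higher Avicel mean was found in 86 of all 158 members, 24 of them among the 53 that met all conditions. The median ratio of Δclr-5 to WT on Avicel was 2.14 in the members and 1.10 over all genes. The rule had required a low Avicel level in WT, and why members missed a condition was not tested. Without culture 2 of Δclr-5 on Avicel 83 members met the thresholds, and without culture 1 40 did. On CPM scaled by TMM (trimmed mean of M values, edgeR's normalization) 38 did.

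The levels of the strains on the same medium are set side by side next, as levels only, because WT libraries chose the genes. The ratio of the Δclr-5 mean to the WT mean, with 1 CPM added to each, had a median over the 158 genes of 0.948 on histidine (quartiles 0.658 and 1.25), 1.23 on leucine (0.781 and 1.85) and 2.14 on Avicel (1.49 and 3.62). Over all genes with at least 20 CPM in WT, the median was 0.975 on histidine (5618 genes) and 1.13 on leucine (5133 genes). On histidine 25 members (15.8%) were at 0.5 of the WT level or less, beside 6.67% of those genes, and 7 (4.43%) at 2 times or more, beside 3.29%. On leucine 14 members (8.86%) were at 0.5 or less, beside 3.99%, and 30 (19.0%) at 2 times or more, beside 3.86%. On Avicel the mean was higher in Δclr-5 than in WT for 145 of the 158, and WT on Avicel had been required to be low.

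In fitted values the median log2 fold change of the members between Δclr-5 and WT was -0.09 on histidine, 0.04 on leucine and 0.94 on Avicel, against -0.03, 0.03 and -0.01 over all genes. Both TMM-scaled Δclr-5 libraries lay below both WT libraries in 60 members on histidine (all genes 33.5%), 63 on leucine (32.5%) and 12 on Avicel (24.9%). They lay above them in 43 on histidine (31.2%), 67 on leucine (35.2%) and 110 on Avicel (26%). In plain CPM, Δclr-5 lay below in 60 on histidine (33.1%), 46 on leucine (18.5%) and 7 on Avicel (14.7%), and above in 44 (32%), 83 (54.2%) and 128 (38.3%). As shares of the members, the TMM-scaled counts below and above WT were 38.0% and 27.2% on histidine, near those of all genes. On leucine they were 39.9% and 42.4%, both somewhat over the shares of all genes. On Avicel 69.6% of the members lay above WT, far over the share of all genes. The rule had required a low WT level on Avicel, so this excess partly follows from the choice and was not tested. The order of the strains for single genes below is in plain CPM, and after TMM scaling it was different on histidine for NCU02126, on leucine for NCU00821, NCU00984, NCU01830, NCU01862, NCU07853, acu-6, aga-1, gdh-1, gpr-6 and het-c, and on Avicel for NCU00522, NCU01219, NCU02147, NCU05277, NCU09874, cpc-3 and leu-4.

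At 0.5 of the WT level or less on both amino acids were 9 members, namely matA-1, lao, NCU11365, NCU05277, NCU08183, leu-4, NCU06376, NCU03388 and NCU00017. NCU03388 and NCU00017 were named after their values were seen. At 2 times or more on both were NCU06615 and NCU08155. At 0.5 or less on histidine and 2 times or more on leucine were NCU00721 and NCU06123.

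**Figure D4:**
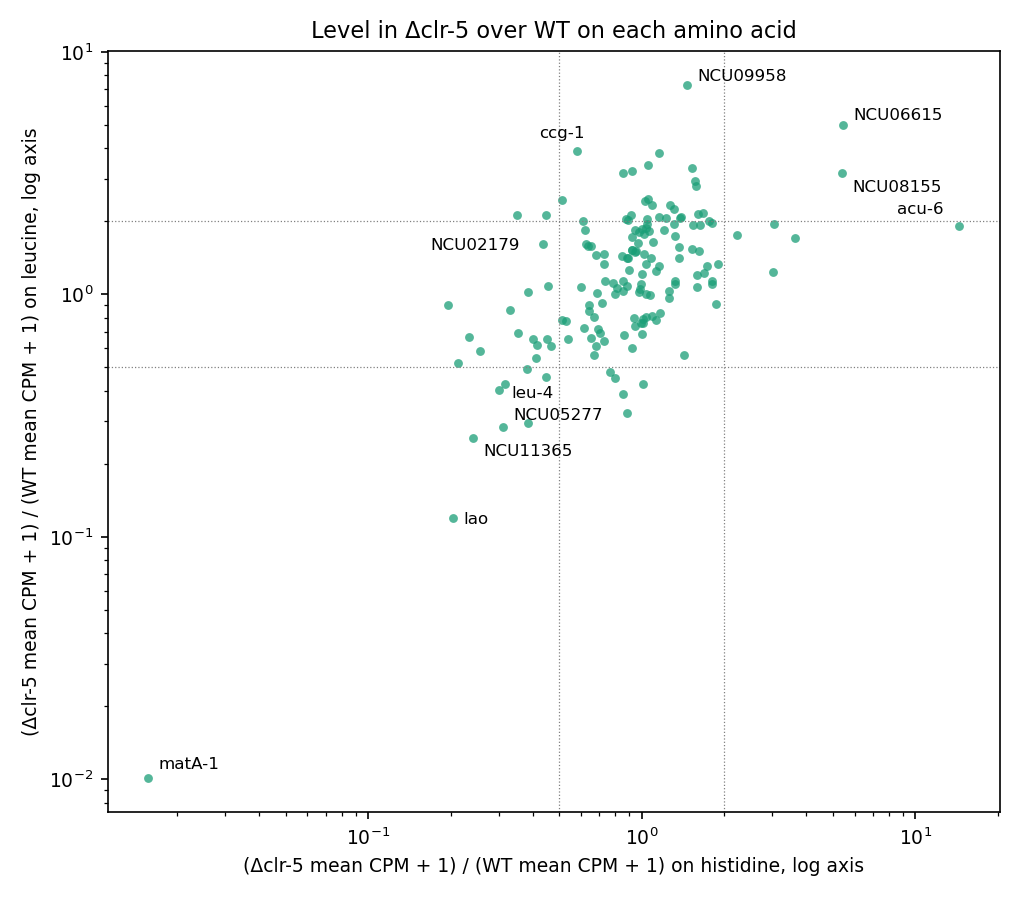
Level in Δclr-5 over WT, (mean CPM + 1) over (mean CPM + 1), on histidine (x axis) and on leucine (y axis), both log axes, 1 point for each of the 158 genes, dotted lines at 0.5 and 2. Most points lie between the dotted lines on histidine, 9 lie at the lower left and 2 at the upper right.

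The L-amino acid oxidase gene lao and the aminotransferase genes NCU11365 and NCU06881 lay below WT in Δclr-5 on both amino acids. lao had 22.8 and 21.6 CPM in Δclr-5 on histidine against 134 and 91.7 in WT, 18.7 and 20.7 in Δclr-5 on leucine against 167 and 176 in WT, and 8.33 and 8.63 in Δclr-5 on Avicel against 11.4 and 10.6 in WT. The gene encodes an L-amino acid oxidase, which turns amino acids into keto acids, ammonia and hydrogen peroxide, and lies on chromosome V, 2812706 to 2815486 of the NC12 assembly. Each Δclr-5 library lay below each WT library in all 3 media, at 0.204 of the WT level on histidine and 0.120 on leucine. lao rose in Δclr-5 on histidine, by 1.03 ± 0.17 (adjusted p = 0.000452), and on leucine, by 1.00 ± 0.17 (adjusted p = 0.00102), over Avicel. NCU11365 had 195 and 208 CPM in Δclr-5 on histidine against 804 and 867 in WT, 218 and 187 in Δclr-5 on leucine against 820.2 and 764 in WT, and 2.94 and 3.39 in Δclr-5 on Avicel against 1.39 and 1.52 in WT. This aminotransferase gene lies on chromosome IV, 191867 to 194669 and overlaps NCU11364. The mutant held 0.242 of the WT level on histidine and 0.256 on leucine, below WT in every library, but lay above WT in both cultures on Avicel. The NCU11365 transcript rose over Avicel in the mutant, with changes of 5.64 ± 0.19 (adjusted p = 2.00e-08) on histidine and 5.79 ± 0.19 (adjusted p = 3.90e-08) on leucine. NCU06881 had 76.8 and 73.3 CPM in Δclr-5 on histidine against 107 and 115 in WT, 133 and 138 in Δclr-5 on leucine against 246 and 199 in WT, and 71.01 and 71.6 in Δclr-5 on Avicel against 13.3 and 21.9 in WT. It encodes another aminotransferase and overlaps NCU06880. The mutant lay below WT on both amino acids and above it on Avicel, where it had 3.89 times the WT level. NCU06881 was not called on histidine (-0.28 ± 0.21, adjusted p = 0.258) and rose on leucine (0.71 ± 0.21, adjusted p = 0.0177) in Δclr-5 over Avicel. The call on leucine was lost without either Δclr-5 leucine culture (adjusted p = 0.0711 without culture 1 and 0.0645 without culture 2).

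**Figure D5:**
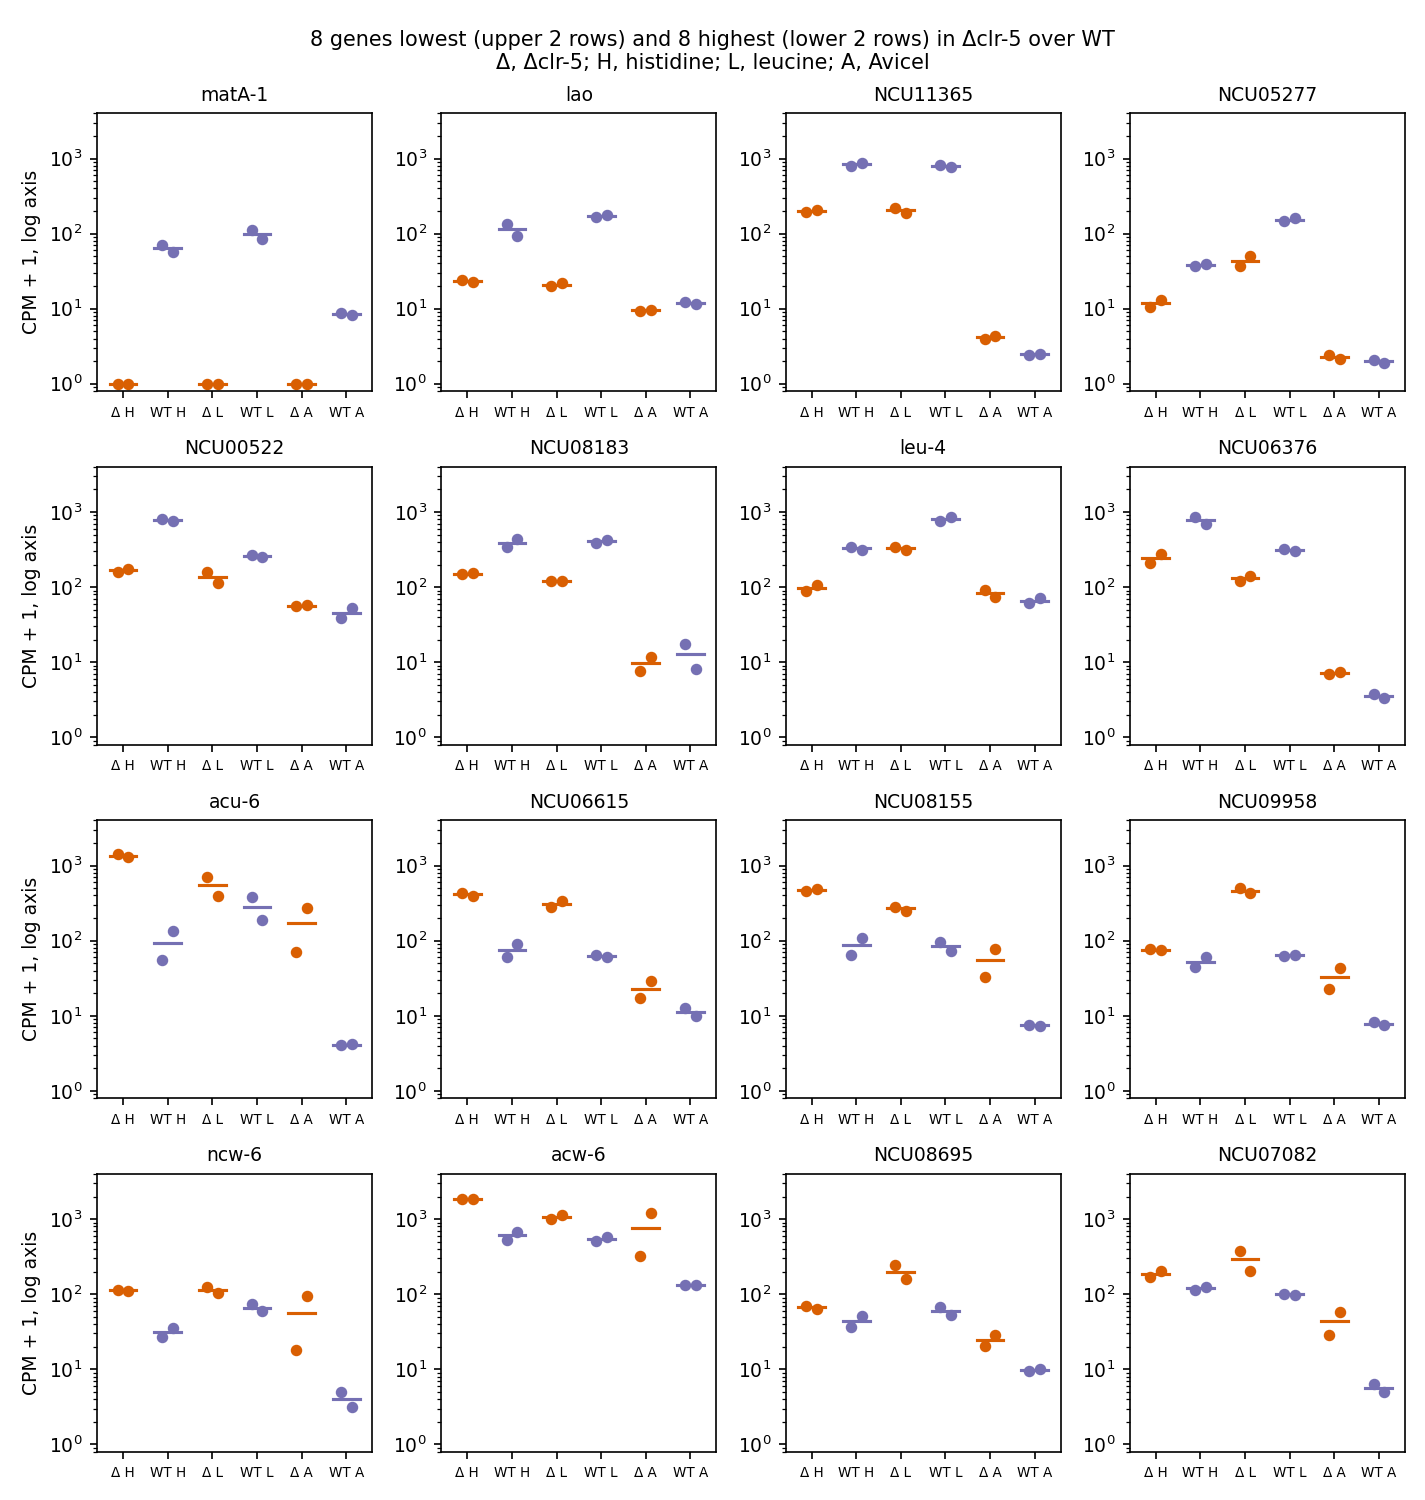
CPM + 1 (log axis) in each culture (points) with group means (bars) of the 8 members lowest (upper 2 rows) and the 8 highest (lower 2 rows) in Δclr-5 over WT on the amino acids, Δclr-5 left of WT for histidine (H), leucine (L) and Avicel (A). For lao, both Δclr-5 points on histidine (22.8 and 21.6 CPM) sit below both WT points (134 and 91.7 CPM), and for acu-6 both (1424 and 1292 CPM) sit above both WT points (54.2 and 132 CPM).

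Genes of amino acid synthesis and its control divided. leu-4 had 88.1 and 107 CPM in Δclr-5 on histidine against 346 and 309 in WT, 337 and 316 in Δclr-5 on leucine against 759 and 859 in WT, and 89.5 and 73.5 in Δclr-5 on Avicel against 59.6 and 69.6 in WT. This gene (NCU02010, chromosome I, 1685685 to 1689164) encodes 2-isopropylmalate synthase, the first enzyme committed to leucine synthesis. In Δclr-5 its histidine cultures overlapped the Avicel cultures and its leucine cultures lay above them, and on both amino acids it lay below WT. leu-4 was not called on histidine (-0.10 ± 0.19, adjusted p = 0.667) and rose on leucine (1.78 ± 0.20, adjusted p = 5.49e-05) in Δclr-5 over Avicel. Its level on histidine was lower than on leucine within the mutant, with a log2 fold change of -1.88 ± 0.20 (adjusted p = 1.63e-05). NCU00522 had 159 and 174 CPM in Δclr-5 on histidine against 814 and 760.1 in WT, 156 and 111 in Δclr-5 on leucine against 265 and 250.0 in WT, and 54.2 and 56.02 in Δclr-5 on Avicel against 37.3 and 51.9 in WT. It encodes a cystathionine β-lyase of methionine synthesis (chromosome I, 8136850 to 8138708, overlapping NCU00521), and was below WT in each library on both amino acids, at 0.212 of WT on histidine and 0.522 on leucine. The NCU00522 transcript rose over Avicel in the mutant, with changes of 1.24 ± 0.21 (adjusted p = 0.000503) on histidine and 1.07 ± 0.21 (adjusted p = 0.00224) on leucine. cpc-3 had 129.8 and 139 CPM in Δclr-5 on histidine against 145 and 121 in WT, 147 and 134 in Δclr-5 on leucine against 206 and 164 in WT, and 30.9 and 29.9 in Δclr-5 on Avicel against 29.7 and 24.02 in WT. The cpc-3 gene encodes the kinase of the initiation factor eIF2α that starts general amino acid control, the response of Neurospora to amino acid shortage. On histidine its strains overlapped, and on leucine Δclr-5 lay below WT. cpc-3 rose over Avicel in the mutant by 1.79 ± 0.16 (adjusted p = 5.47e-06) on histidine and by 1.99 ± 0.16 (adjusted p = 8.10e-06) on leucine.

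Genes for breakdown of leucine and of other carbon skeletons had a higher mean in Δclr-5 than in WT on leucine. NCU02126 had 113 and 118 CPM in Δclr-5 on histidine against 77.4 and 112 in WT, 690.2 and 917 in Δclr-5 on leucine against 457 and 322 in WT, and 5.23 and 18.6 in Δclr-5 on Avicel against 1.33 and 1.69 in WT. Isovaleryl-CoA dehydrogenase, its product, acts early in leucine breakdown. NCU00591 had 759 and 812 CPM in Δclr-5 on histidine against 456 and 687 in WT, 1887 and 2118 in Δclr-5 on leucine against 1435 and 1114 in WT, and 20.7 and 78.4 in Δclr-5 on Avicel against 20.9 and 14.6 in WT. This is the α subunit gene of methylcrotonoyl-CoA carboxylase, which acts further along the same route, and it overlaps NCU00592. Both genes were higher in Δclr-5 on leucine than in WT in each library, and both were higher on leucine than on histidine by mean in either strain. NCU02126 rose in Δclr-5 on histidine, by 2.96 ± 0.44 (adjusted p = 0.000301), and on leucine, by 5.89 ± 0.50 (adjusted p = 1.97e-05), over Avicel. The NCU00591 transcript rose over Avicel in the mutant, with changes of 3.68 ± 0.49 (adjusted p = 0.000113) on histidine and 5.17 ± 0.52 (adjusted p = 4.42e-05) on leucine. The Avicel cultures of the mutant lay far apart for both genes, and the standard errors rest on a spread shared by all 6 groups. For NCU02126 the level on histidine was lower than on leucine within the mutant, with a log2 fold change of -2.93 ± 0.43 (adjusted p = 0.000301). NCU00680 had 162 and 172 CPM in Δclr-5 on histidine against 166 and 209 in WT, 1148 and 1299 in Δclr-5 on leucine against 679.7 and 529 in WT, and 36.6 and 43.9 in Δclr-5 on Avicel against 19.4 and 20.9 in WT. It encodes a 2-methylcitrate dehydratase, an enzyme of propionyl-CoA use, and overlaps NCU00681. On leucine both Δclr-5 cultures exceeded both WT cultures, and on histidine the strains overlapped. NCU00680 rose over Avicel in the mutant by 1.71 ± 0.17 (adjusted p = 1.21e-05) on histidine and by 4.72 ± 0.20 (adjusted p = 8.17e-08) on leucine. Histidine against leucine gave a log2 fold change of -3.01 ± 0.18 (adjusted p = 3.15e-07) in the mutant. NCU01830 had 466 and 507 CPM in Δclr-5 on histidine against 362 and 579.6 in WT, 220.1 and 205 in Δclr-5 on leucine against 187 and 132 in WT, and 11.8 and 46.1 in Δclr-5 on Avicel against 32.5 and 28.3 in WT. Its product, 4-hydroxyphenylpyruvate dioxygenase, acts in the breakdown of tyrosine. The strains overlapped on histidine and on Avicel, and on leucine Δclr-5 exceeded WT in plain CPM alone. NCU01830 rose in Δclr-5 on histidine, by 3.76 ± 0.50 (adjusted p = 0.000133), and on leucine, by 2.71 ± 0.48 (adjusted p = 0.00149), over Avicel.

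Glutamate dehydrogenase, arginase and a permease also rose on both amino acids without clr-5. gdh-1 had 4017 and 4392 CPM in Δclr-5 on histidine against 2323 and 2942 in WT, 2501 and 2649.7 in Δclr-5 on leucine against 2228 and 2079 in WT, and 289 and 468 in Δclr-5 on Avicel against 157 and 133 in WT. The gene encodes the NAD-specific glutamate dehydrogenase, the catabolic enzyme that frees ammonium from glutamate. On histidine and on Avicel both Δclr-5 cultures exceeded both WT cultures, while on leucine they did so in plain CPM alone. The gdh-1 transcript rose over Avicel in the mutant, with changes of 3.14 ± 0.24 (adjusted p = 1.42e-06) on histidine and 2.57 ± 0.23 (adjusted p = 1.38e-05) on leucine. aga-1 had 248 and 234 CPM in Δclr-5 on histidine against 313 and 405 in WT, 247 and 292 in Δclr-5 on leucine against 397 and 269 in WT, and 48.4 and 89.5 in Δclr-5 on Avicel against 45.9 and 62.1 in WT. Arginase, its product, splits arginine into urea and ornithine. On histidine Δclr-5 lay below WT, and on leucine and Avicel the plain CPM overlapped. aga-1 rose over Avicel in the mutant by 1.47 ± 0.27 (adjusted p = 0.000767) on histidine and by 1.77 ± 0.27 (adjusted p = 0.000455) on leucine. NCU00721 had 560.0 and 588 CPM in Δclr-5 on histidine against 1024 and 1553 in WT, 946 and 946 in Δclr-5 on leucine against 497 and 392 in WT, and 22.96 and 43.8 in Δclr-5 on Avicel against 26.4 and 27.5 in WT. It is named a proline-specific permease, the only member among the uptake genes listed. On histidine the mutant lay below WT (0.446 of its level) and on leucine above it (2.13 times). NCU00721 rose in Δclr-5 on histidine, by 3.77 ± 0.29 (adjusted p = 1.47e-06), and on leucine, by 4.63 ± 0.30 (adjusted p = 1.56e-06), over Avicel. NCU06123, chosen after its values were seen as the other member that split this way (it overlaps NCU15321), had 219 and 258 CPM in Δclr-5 on histidine against 704 and 661 in WT, and 1102 and 1056 in Δclr-5 on leucine against 549 and 465 in WT.

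The gluconeogenesis genes acu-6 and fbp-1 lay above WT in the mutant (acu-6 on leucine in plain CPM alone), while NCU02179 and NCU00565 did not do so throughout. acu-6 had 1424 and 1292 CPM in Δclr-5 on histidine against 54.2 and 132 in WT, 693 and 392 in Δclr-5 on leucine against 379 and 187 in WT, and 68.7 and 270.0 in Δclr-5 on Avicel against 3.07 and 3.16 in WT. The product, phosphoenolpyruvate carboxykinase, makes phosphoenolpyruvate from oxaloacetate (chromosome VI, 1824832 to 1828327). The mutant held 14.5 times the WT level on histidine, 1.91 times on leucine and 41.4 times on Avicel, and its Avicel cultures differed from each other. acu-6 rose on histidine (2.70 ± 0.63, adjusted p = 0.00443) and was not called on leucine (1.53 ± 0.60, adjusted p = 0.0687) in Δclr-5 over Avicel. Without culture 2 of Δclr-5 on Avicel the change on leucine was 2.69 (adjusted p = 0.0238). fbp-1 had 52.5 and 49.4 CPM in Δclr-5 on histidine against 24.7 and 48.3 in WT, 228 and 218 in Δclr-5 on leucine against 122 and 93.4 in WT, and 5.18 and 20.7 in Δclr-5 on Avicel against 3.02 and 2.34 in WT. Fructose-1,6-bisphosphatase, its product, acts late in the same route. Both Δclr-5 cultures exceeded both WT cultures in all 3 media. fbp-1 rose over Avicel in the mutant by 1.67 ± 0.48 (adjusted p = 0.0129) on histidine and by 3.94 ± 0.51 (adjusted p = 0.000245) on leucine. NCU02179 had 397 and 385 CPM in Δclr-5 on histidine against 821 and 976 in WT, 532 and 592 in Δclr-5 on leucine against 373 and 324 in WT, and 105 and 121 in Δclr-5 on Avicel against 64.01 and 46.2 in WT. It encodes a D-lactate dehydrogenase. Δclr-5 lay below WT on histidine and above WT on leucine and Avicel. NCU02179 rose in Δclr-5 on histidine, by 1.44 ± 0.17 (adjusted p = 3.11e-05), and on leucine, by 2.10 ± 0.17 (adjusted p = 7.10e-06), over Avicel. NCU00565 had 166 and 161 CPM in Δclr-5 on histidine against 139 and 187 in WT, 134 and 124 in Δclr-5 on leucine against 195 and 182 in WT, and 28.1 and 36.6 in Δclr-5 on Avicel against 18.3 and 33.02 in WT. The lipoic acid synthetase it encodes makes the cofactor of the α-keto acid dehydrogenases, and the gene overlaps NCU00564. Only on leucine did both mutant cultures lie below both WT cultures. The NCU00565 transcript rose over Avicel in the mutant, with changes of 1.99 ± 0.26 (adjusted p = 7.21e-05) on histidine and 1.79 ± 0.26 (adjusted p = 0.000302) on leucine.

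The catalase genes and aod-1 had a higher level in the mutant than in WT already on Avicel. cat-1 had 290.0 and 283 CPM in Δclr-5 on histidine against 163 and 198 in WT, 485 and 381 in Δclr-5 on leucine against 160.4 and 149 in WT, and 56.3 and 233 in Δclr-5 on Avicel against 17.3 and 15.5 in WT. cat-2 had 2097 and 2207 CPM in Δclr-5 on histidine against 1393 and 1262 in WT, 1318 and 1267 in Δclr-5 on leucine against 821 and 896 in WT, and 562 and 499 in Δclr-5 on Avicel against 174 and 196 in WT. Both encode catalases, which break down hydrogen peroxide. In both genes each Δclr-5 culture exceeded each WT culture in all 3 media. cat-1 was not called on histidine (0.68 ± 0.44, adjusted p = 0.213) and rose on leucine (1.42 ± 0.45, adjusted p = 0.0301) in Δclr-5 over Avicel. Without culture 2 of Δclr-5 on Avicel, the cat-1 change on histidine was 1.90 (adjusted p = 2.64e-06), and its call on leucine was lost without either leucine culture (adjusted p = 0.136 without culture 1 and 0.0536 without culture 2) and in a fit of only the 6 Δclr-5 libraries (0.0981). The cat-2 cultures were close to each other in every group. cat-2 rose in Δclr-5 on histidine, by 1.66 ± 0.19 (adjusted p = 2.42e-05), and on leucine, by 1.06 ± 0.18 (adjusted p = 0.000938), over Avicel. aod-1 had 69.5 and 62.1 CPM in Δclr-5 on histidine against 22.7 and 35.2 in WT, 89.2 and 23.5 in Δclr-5 on leucine against 34.8 and 28.3 in WT, and 51.8 and 47.4 in Δclr-5 on Avicel against 4.93 and 4.15 in WT. It encodes the alternative oxidase, which bypasses the cytochrome chain. Culture 2 of Δclr-5 on leucine was far below culture 1 and below both WT cultures, and on histidine and Avicel the mutant exceeded WT. aod-1 was not called on histidine (0.047 ± 0.48, adjusted p = 0.941) and was not called on leucine (-0.012 ± 0.48, adjusted p = 0.986) in Δclr-5 over Avicel. Without culture 1 on leucine the change was -1.34 (adjusted p = 0.00588). NCU01219 had 491 and 498 CPM in Δclr-5 on histidine against 628 and 885 in WT, 1068 and 1202 in Δclr-5 on leucine against 732 and 709 in WT, and 91.7 and 145 in Δclr-5 on Avicel against 129 and 119 in WT. It encodes a glutaredoxin and overlaps NCU01218. The mutant lay below WT on histidine and above WT on leucine. NCU01219 rose over Avicel in the mutant by 1.73 ± 0.21 (adjusted p = 3.77e-05) on histidine and by 3.06 ± 0.22 (adjusted p = 2.84e-06) on leucine.

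The polyubiquitin gene passed the test on neither amino acid in the mutant. ubi had 3267 and 3316 CPM in Δclr-5 on histidine against 3224 and 3816 in WT, 2059 and 1759.9 in Δclr-5 on leucine against 2159 and 2606 in WT, and 1934 and 1752 in Δclr-5 on Avicel against 562 and 619.5 in WT. The gene encodes ubiquitin, the tag for protein breakdown by the proteasome. The Δclr-5 cultures on Avicel overlapped those on leucine, and they lay above both WT cultures on Avicel. ubi was not called on histidine (0.48 ± 0.22, adjusted p = 0.0811) and was not called on leucine (-0.17 ± 0.22, adjusted p = 0.571) in Δclr-5 over Avicel. Without culture 1 of Δclr-5 on Avicel, ubi passed on histidine (0.64, adjusted p = 0.0313), and so it did under scaling by library size alone (0.84, adjusted p = 0.00304).

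Cell wall, clock and light-induced genes had unequal Avicel cultures in the mutant, with culture 2 the higher. acw-6 had 1856 and 1844 CPM in Δclr-5 on histidine against 531 and 683 in WT, 991 and 1126 in Δclr-5 on leucine against 508 and 576 in WT, and 320.4 and 1204 in Δclr-5 on Avicel against 133 and 133 in WT. ncw-6 had 114 and 110.4 CPM in Δclr-5 on histidine against 25.6 and 34.8 in WT, 123 and 102 in Δclr-5 on leucine against 72.04 and 58.04 in WT, and 16.9 and 94.4 in Δclr-5 on Avicel against 4.001 and 2.10 in WT. Both encode cell wall proteins, and each Δclr-5 culture exceeded each WT culture in all 3 media. acw-6 was not called on histidine (0.97 ± 0.42, adjusted p = 0.0665) and was not called on leucine (0.31 ± 0.41, adjusted p = 0.583) in Δclr-5 over Avicel. ncw-6 was not called on histidine (0.72 ± 0.55, adjusted p = 0.286) and was not called on leucine (0.86 ± 0.55, adjusted p = 0.241) in Δclr-5 over Avicel. Without culture 2 on Avicel both passed on histidine (acw-6 2.08, adjusted p = 2.41e-06, and ncw-6 2.29, adjusted p = 1.57e-05) and on leucine (acw-6 1.42, adjusted p = 0.000109, and ncw-6 2.43, adjusted p = 2.15e-05). With all cultures, acw-6 also passed on histidine in DESeq2 (0.96, adjusted p = 0.0255), under scaling by library size alone (1.28, adjusted p = 0.0335) and with a replicate block (1.08, adjusted p = 0.0318). The calls of acw-6 on histidine thus depended on the model as well as on the culture. ccg-1 had 4926 and 4701 CPM in Δclr-5 on histidine against 6034 and 10572 in WT, 13534 and 14446 in Δclr-5 on leucine against 3694 and 3473 in WT, and 629.7 and 3593 in Δclr-5 on Avicel against 992 and 521 in WT. It is a clock-controlled and glucose-repressible gene, also counted among conidia markers. The mutant lay below WT on histidine and above it on leucine, where it held 3.90 times the WT level. ccg-1 was not called on histidine (0.89 ± 0.60, adjusted p = 0.221) and rose on leucine (2.57 ± 0.63, adjusted p = 0.00823) in Δclr-5 over Avicel. Without culture 2 on Avicel the change of ccg-1 on histidine was 2.49 (adjusted p = 0.000131). bli-3 had 222 and 192 CPM in Δclr-5 on histidine against 139.9 and 252 in WT, 280.4 and 274 in Δclr-5 on leucine against 86.8 and 74.8 in WT, and 20.3 and 129.9 in Δclr-5 on Avicel against 14.5 and 9.99 in WT. It is known as a blue-light induced gene and overlaps NCU07266. The strains overlapped on histidine, and the mutant exceeded WT on leucine and Avicel. bli-3 was not called on histidine (1.17 ± 0.60, adjusted p = 0.118) and rose on leucine (1.73 ± 0.60, adjusted p = 0.0447) in Δclr-5 over Avicel. Without culture 2 on Avicel its change on histidine was 2.90 (adjusted p = 3.7e-05), and its call on leucine was lost without culture 1 or 2 on leucine (adjusted p = 0.125 and 0.104), with no filter (0.0567) and in a fit of only the 6 Δclr-5 libraries (0.107).

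The mating-type gene matA-1 had no count in the mutant. Its WT level was 70.02 and 55.2 CPM on histidine, 112 and 83.6 CPM on leucine and 7.77 and 7.30 CPM on Avicel, while all 6 Δclr-5 libraries had 0 counts. With 3 counts over both mutant libraries as the limit that a count of 0 allows, it was at least 777-fold lower in Δclr-5 on histidine, at least 1274-fold on leucine and at least 94.5-fold on Avicel. The gene is specific to strains of mating type A, so deletion of clr-5 and the mating type of the mutant strain cannot be told apart here. het-c had 269 and 259.6 CPM in Δclr-5 on histidine against 151 and 141 in WT, 189.7 and 202 in Δclr-5 on leucine against 191 and 166 in WT, and 51.1 and 65.6 in Δclr-5 on Avicel against 24.9 and 27.5 in WT. It is a heterokaryon incompatibility gene, and Δclr-5 exceeded WT in both cultures on histidine and on Avicel. het-c rose over Avicel in the mutant by 1.83 ± 0.13 (adjusted p = 1.06e-06) on histidine and by 1.54 ± 0.13 (adjusted p = 9.47e-06) on leucine. gpr-6 had 200.4 and 203 CPM in Δclr-5 on histidine against 96.1 and 119 in WT, 142 and 150.4 in Δclr-5 on leucine against 174 and 146 in WT, and 31.6 and 59.6 in Δclr-5 on Avicel against 23.8 and 22.8 in WT. It encodes a G-protein-coupled receptor and showed the same order of strains on those media. gpr-6 rose in Δclr-5 on histidine, by 1.81 ± 0.21 (adjusted p = 3.23e-05), and on leucine, by 1.49 ± 0.21 (adjusted p = 0.00026), over Avicel.

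Transporters and other genes with a product name mostly rose in the mutant on both amino acids. NCU00821 had 466 and 517 CPM in Δclr-5 on histidine against 456 and 534 in WT, 309 and 352 in Δclr-5 on leucine against 317 and 283 in WT, and 163 and 225 in Δclr-5 on Avicel against 75.7 and 48.2 in WT. It encodes a sugar transporter, and its strains overlapped on both amino acids in plain CPM. The NCU00821 transcript rose over Avicel in the mutant, with changes of 1.00 ± 0.20 (adjusted p = 0.00126) on histidine and 0.56 ± 0.20 (adjusted p = 0.0401) on leucine. Its call on leucine was lost without culture 1 on Avicel (adjusted p = 0.132), without either leucine culture (0.0931 without culture 1 and 0.16 without culture 2) and with a replicate block (0.0522). NCU00121 had 287 and 258 CPM in Δclr-5 on histidine against 207 and 225 in WT, 191 and 165 in Δclr-5 on leucine against 186 and 158 in WT, and 92.8 and 93.9 in Δclr-5 on Avicel against 39.2 and 42.1 in WT. It encodes a CLC-type channel protein, overlaps NCU00122, and was above WT on histidine and Avicel. NCU00121 rose over Avicel in the mutant by 1.19 ± 0.15 (adjusted p = 5.08e-05) on histidine and by 0.72 ± 0.15 (adjusted p = 0.00271) on leucine. NCU01441 had 68.1 and 65.00 CPM in Δclr-5 on histidine against 129 and 159 in WT, 84.5 and 83.1 in Δclr-5 on leucine against 138 and 138 in WT, and 11.00 and 11.5 in Δclr-5 on Avicel against 9.39 and 7.95 in WT. Inosine triphosphate pyrophosphatase, its product, removes faulty nucleotides, and the gene overlaps NCU01442. Δclr-5 lay below WT on both amino acids. NCU01441 rose in Δclr-5 on histidine, by 2.21 ± 0.14 (adjusted p = 4.92e-07), and on leucine, by 2.68 ± 0.14 (adjusted p = 4.72e-07), over Avicel.

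The domain proteins NCU00984 and NCU01862 favoured histidine in the mutant, and NCU02147 had like levels on both amino acids. NCU00984 had 589 and 568 CPM in Δclr-5 on histidine against 564 and 548 in WT, 101 and 110.4 in Δclr-5 on leucine against 106 and 105 in WT, and 20.9 and 30.1 in Δclr-5 on Avicel against 17.3 and 15.4 in WT. It holds a von Willebrand domain, and the strains lay close on the amino acids. The NCU00984 transcript rose over Avicel in the mutant, with changes of 4.16 ± 0.15 (adjusted p = 2.59e-08) on histidine and 1.85 ± 0.14 (adjusted p = 4.74e-06) on leucine. NCU01862 had 378 and 393 CPM in Δclr-5 on histidine against 186 and 218 in WT, 84.9 and 72.5 in Δclr-5 on leucine against 65.01 and 52.7 in WT, and 13.6 and 35.3 in Δclr-5 on Avicel against 11.1 and 7.19 in WT. It encodes a SWIRM domain protein, and each Δclr-5 culture exceeded each WT culture in all 3 media, on leucine in plain CPM alone. NCU01862 rose over Avicel in the mutant by 3.66 ± 0.35 (adjusted p = 1.10e-05) on histidine and by 1.51 ± 0.32 (adjusted p = 0.00419) on leucine. Both were higher on histidine than on leucine within the mutant, with log2 fold changes of 2.31 ± 0.14 (adjusted p = 3.38e-07) for NCU00984 and 2.15 ± 0.32 (adjusted p = 0.000292) for NCU01862. NCU02147 had 45.3 and 48.9 CPM in Δclr-5 on histidine against 71.9 and 70.3 in WT, 42.3 and 41.7 in Δclr-5 on leucine against 80.3 and 71.1 in WT, and 9.82 and 11.4 in Δclr-5 on Avicel against 11.1 and 9.35 in WT. An ankyrin repeat and zinc finger domain protein is its product, and Δclr-5 lay below WT on both amino acids. NCU02147 rose in Δclr-5 on histidine, by 1.80 ± 0.13 (adjusted p = 1.18e-06), and on leucine, by 1.78 ± 0.13 (adjusted p = 3.94e-06), over Avicel.

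The members acd-2, ilv-5 and mig-6 carry a symbol and are given by level. acd-2 had 392 and 374 CPM in Δclr-5 on histidine against 299.7 and 463 in WT, 228 and 249 in Δclr-5 on leucine against 121 and 136 in WT, and 40.1 and 97.4 in Δclr-5 on Avicel against 33.7 and 26.5 in WT. ilv-5 had 172 and 193 CPM in Δclr-5 on histidine against 165 and 182 in WT, 374 and 249.9 in Δclr-5 on leucine against 128 and 124 in WT, and 29.4 and 78.3 in Δclr-5 on Avicel against 8.52 and 6.43 in WT. mig-6 had 1786 and 1500.3 CPM in Δclr-5 on histidine against 943 and 1551 in WT, 1576 and 1571 in Δclr-5 on leucine against 640.2 and 761 in WT, and 198 and 1018 in Δclr-5 on Avicel against 116 and 111 in WT. In all 3 the strains overlapped on histidine and Δclr-5 exceeded WT on leucine and Avicel. The acd-2 transcript rose over Avicel in the mutant, with changes of 2.16 ± 0.32 (adjusted p = 0.000238) on histidine and 1.61 ± 0.32 (adjusted p = 0.00245) on leucine. ilv-5 rose over Avicel in the mutant by 1.44 ± 0.34 (adjusted p = 0.00475) on histidine and by 2.36 ± 0.35 (adjusted p = 0.000509) on leucine. mig-6 was not called on histidine (1.14 ± 0.54, adjusted p = 0.0947) and was not called on leucine (1.22 ± 0.54, adjusted p = 0.0993) in Δclr-5 over Avicel. The mig-6 calls depended on the tool, and the level was also unequal between the Avicel cultures of the mutant. In DESeq2 with all libraries mig-6 passed on histidine (1.12, adjusted p = 0.0317) and on leucine (1.18, adjusted p = 0.0314). Without culture 2 of Δclr-5 on Avicel, mig-6 passed on histidine (2.60, adjusted p = 4.98e-06) and on leucine (2.69, adjusted p = 8.65e-06), and mig-6 overlaps NCU11411 and NCU12058.

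Among the 10 members of highest CPM on the amino acids in WT, a scale that does not allow for gene length, 7 have no symbol in the reference and no product name in the sources used here. NCU09874 had 1137 and 1301 CPM in Δclr-5 on histidine against 1231 and 1635 in WT, 543 and 609.6 in Δclr-5 on leucine against 1644 and 1339 in WT, and 147 and 98.3 in Δclr-5 on Avicel against 166 and 139.6 in WT. NCU05257 had 1049 and 1106 CPM in Δclr-5 on histidine against 1807 and 1493 in WT, 571 and 519 in Δclr-5 on leucine against 885 and 768 in WT, and 58.7 and 32.4 in Δclr-5 on Avicel against 80.6 and 63.7 in WT. For NCU05257 Δclr-5 lay below WT in every medium, and for NCU09874 on leucine. The NCU09874 transcript rose over Avicel in the mutant, with changes of 2.94 ± 0.27 (adjusted p = 5.05e-06) on histidine and 2.00 ± 0.26 (adjusted p = 0.000144) on leucine. NCU05257 rose over Avicel in the mutant by 4.18 ± 0.31 (adjusted p = 1.38e-06) on histidine and by 3.34 ± 0.30 (adjusted p = 1.40e-05) on leucine. NCU08229 had 3366 and 3400.0 CPM in Δclr-5 on histidine against 2741 and 3241 in WT, 731 and 698 in Δclr-5 on leucine against 953 and 879 in WT, and 538 and 465 in Δclr-5 on Avicel against 168 and 160.2 in WT. It was high on histidine in both strains. NCU08229 rose on histidine (2.39 ± 0.20, adjusted p = 2.48e-06) and was not called on leucine (0.29 ± 0.19, adjusted p = 0.24) in Δclr-5 over Avicel. The change on leucine passed under scaling by library size alone (0.51, adjusted p = 0.0334). Histidine against leucine gave 2.10 ± 0.19 (adjusted p = 6.25e-06) in the mutant. NCU10276 was also high on both amino acids. NCU10276 had 1924 and 2270.5 CPM in Δclr-5 on histidine against 2805 and 4054 in WT, 1696 and 2082 in Δclr-5 on leucine against 1049.7 and 839 in WT, and 37.3 and 147 in Δclr-5 on Avicel against 23.2 and 20.5 in WT. The mutant lay below WT on histidine and above WT on leucine and Avicel. The NCU10276 transcript rose over Avicel in the mutant, with changes of 4.20 ± 0.50 (adjusted p = 5.47e-05) on histidine and 4.19 ± 0.50 (adjusted p = 0.000127) on leucine. NCU08771 had 795 and 900.1 CPM in Δclr-5 on histidine against 797 and 1142 in WT, 4791 and 5911 in Δclr-5 on leucine against 2803 and 2408 in WT, and 32.99 and 69.7 in Δclr-5 on Avicel against 25.9 and 22.4 in WT. Leucine gave the higher level in both strains, and there both Δclr-5 cultures exceeded both WT cultures. NCU08771 rose over Avicel in the mutant by 3.72 ± 0.32 (adjusted p = 3.37e-06) on histidine and by 6.51 ± 0.36 (adjusted p = 5.66e-07) on leucine. Within the mutant, histidine against leucine gave -2.80 ± 0.30 (adjusted p = 2.09e-05).

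The other 2 of these 7, NCU04249 and NCU05498, were already high in the mutant on Avicel. NCU04249 had 1036 and 1054 CPM in Δclr-5 on histidine against 793 and 1165 in WT, 2512 and 1850.2 in Δclr-5 on leucine against 2141 and 2261 in WT, and 1175 and 1264 in Δclr-5 on Avicel against 165 and 295 in WT. NCU05498 had 2265 and 2124 CPM in Δclr-5 on histidine against 1756 and 3033 in WT, 5663 and 5595 in Δclr-5 on leucine against 2618 and 2707 in WT, and 2606 and 2511 in Δclr-5 on Avicel against 550.5 and 552 in WT. Both Δclr-5 cultures on histidine lay below both Δclr-5 cultures on Avicel, where WT had the opposite order. NCU04249 was not called on histidine (-0.58 ± 0.30, adjusted p = 0.121) and was not called on leucine (0.63 ± 0.30, adjusted p = 0.117) in Δclr-5 over Avicel. NCU05498 was not called on histidine (-0.58 ± 0.25, adjusted p = 0.0675) and rose on leucine (0.92 ± 0.25, adjusted p = 0.0137) in Δclr-5 over Avicel. Neither passed on histidine, and both depended on the setting. NCU05498 passed on histidine in DESeq2 (-0.61, adjusted p = 0.0169) and without culture 2 on Avicel (-0.69, adjusted p = 0.0371). Its call on leucine was lost without culture 1 on leucine (adjusted p = 0.0692). NCU04249 passed on leucine under scaling by library size alone (0.84, adjusted p = 0.0314).

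Also among the 8 lowest in Δclr-5 over WT were the unnamed genes NCU05277, NCU08183 and NCU06376. NCU05277 had 9.57 and 12.03 CPM in Δclr-5 on histidine against 35.9 and 38.1 in WT, 36.1 and 49.2 in Δclr-5 on leucine against 145 and 159 in WT, and 1.39 and 1.11 in Δclr-5 on Avicel against 1.10 and 0.877 in WT. NCU08183 had 147 and 152 CPM in Δclr-5 on histidine against 339 and 441 in WT, 119 and 118 in Δclr-5 on leucine against 384 and 429 in WT, and 6.57 and 10.9 in Δclr-5 on Avicel against 16.4 and 7.19 in WT. NCU06376 had 211 and 277 CPM in Δclr-5 on histidine against 856 and 689 in WT, 121 and 141 in Δclr-5 on leucine against 316 and 299.9 in WT, and 5.93 and 6.41 in Δclr-5 on Avicel against 2.78 and 2.34 in WT. In each, both Δclr-5 cultures lay below both WT cultures on both amino acids, which partly follows from their pick by this ratio. NCU05277 lies on chromosome IV, 5495312 to 5495858, NCU08183 on chromosome VII, 3666019 to 3667359, and NCU06376, which overlaps NCU06375, on chromosome IV, 2738897 to 2741292. NCU05277 rose over Avicel in the mutant by 2.75 ± 0.23 (adjusted p = 3.06e-06) on histidine and by 4.86 ± 0.23 (adjusted p = 2.02e-07) on leucine. NCU08183 rose in Δclr-5 on histidine, by 3.76 ± 0.33 (adjusted p = 5.49e-06), and on leucine, by 3.57 ± 0.33 (adjusted p = 2.02e-05), over Avicel. The NCU06376 transcript rose over Avicel in the mutant, with changes of 4.95 ± 0.20 (adjusted p = 2.85e-08) on histidine and 4.19 ± 0.19 (adjusted p = 1.70e-07) on leucine. All 3 thus rose over Avicel in the mutant, while their level on both amino acids stayed below that of WT. Their rise in CPM over Avicel was smaller than in WT, where that rise chose the genes. NCU05277 was lower on histidine than on leucine within the mutant, by -2.12 ± 0.19 (adjusted p = 4.11e-06).

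At the other end, 5 unnamed genes were among the 8 highest. NCU06615 had 433 and 391 CPM in Δclr-5 on histidine against 59.6 and 89.9 in WT, 279 and 341 in Δclr-5 on leucine against 62.5 and 59.7 in WT, and 16.1 and 27.96 in Δclr-5 on Avicel against 11.5 and 8.82 in WT. NCU08155 had 459 and 485 CPM in Δclr-5 on histidine against 64.1 and 109 in WT, 283 and 251 in Δclr-5 on leucine against 95.7 and 72.3 in WT, and 31.98 and 76.4 in Δclr-5 on Avicel against 6.61 and 6.31 in WT. NCU09958 had 76.1 and 74.3 CPM in Δclr-5 on histidine against 43.1 and 59.2 in WT, 497 and 424 in Δclr-5 on leucine against 62.2 and 62.7 in WT, and 21.5 and 42.4 in Δclr-5 on Avicel against 7.31 and 6.43 in WT. NCU06615 held 5.45 and 5.01 times the WT level on histidine and leucine, NCU08155 held 5.41 and 3.16 times, and NCU09958 held 1.46 and 7.27 times. NCU06615 rose over Avicel in the mutant by 3.89 ± 0.25 (adjusted p = 4.92e-07) on histidine and by 3.61 ± 0.25 (adjusted p = 2.35e-06) on leucine. NCU08155 rose in Δclr-5 on histidine, by 2.80 ± 0.35 (adjusted p = 7.27e-05), and on leucine, by 2.12 ± 0.34 (adjusted p = 0.000739), over Avicel. The NCU09958 transcript rose over Avicel in the mutant, with changes of 0.90 ± 0.24 (adjusted p = 0.00703) on histidine and 3.66 ± 0.26 (adjusted p = 2.84e-06) on leucine. By mean NCU09958 was higher on leucine than on histidine in both strains. Within the mutant NCU09958 was lower on histidine than on leucine, by -2.76 ± 0.25 (adjusted p = 5.09e-06). NCU08695 had 69.6 and 62.5 CPM in Δclr-5 on histidine against 35.9 and 49.9 in WT, 242 and 157 in Δclr-5 on leucine against 67.1 and 51.3 in WT, and 19.7 and 27.4 in Δclr-5 on Avicel against 8.64 and 9.23 in WT. NCU07082 had 168 and 204 CPM in Δclr-5 on histidine against 114 and 122 in WT, 381 and 201 in Δclr-5 on leucine against 100.1 and 96.6 in WT, and 27.7 and 57.8 in Δclr-5 on Avicel against 5.28 and 4.03 in WT. In all 5 genes each Δclr-5 culture exceeded each WT culture in all 3 media. NCU08695 rose over Avicel in the mutant by 1.14 ± 0.24 (adjusted p = 0.00212) on histidine and by 2.89 ± 0.26 (adjusted p = 1.28e-05) on leucine. NCU07082 rose in Δclr-5 on histidine, by 1.79 ± 0.34 (adjusted p = 0.00112), and on leucine, by 2.59 ± 0.34 (adjusted p = 0.000244), over Avicel. They lie on chromosome IV, 1813053 to 1814137 (NCU06615), chromosome VII, 3563626 to 3565020 (NCU08155), chromosome V, 6047047 to 6049161 (NCU09958), chromosome IV, 4064859 to 4067114 (NCU08695) and chromosome VI, 218351 to 221832 (NCU07082).

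Only 3 of the 158 genes fell on histidine in the mutant, and they are named here because they are few. NCU07853 had 125 and 119.8 CPM in Δclr-5 on histidine against 97.5 and 161 in WT, 1241 and 605 in Δclr-5 on leucine against 431 and 567 in WT, and 655 and 333 in Δclr-5 on Avicel against 9.68 and 29.5 in WT. NCU05822 had 23.9 and 26.6 CPM in Δclr-5 on histidine against 42.9 and 32.1 in WT, 117 and 134 in Δclr-5 on leucine against 94.7 and 77.6 in WT, and 36.7 and 43.5 in Δclr-5 on Avicel against 6.15 and 5.73 in WT. NCU06128 had 56.7 and 53.2 CPM in Δclr-5 on histidine against 28.8 and 37.7 in WT, 53.3 and 53.6 in Δclr-5 on leucine against 26.2 and 28.4 in WT, and 38.2 and 177 in Δclr-5 on Avicel against 4.46 and 4.97 in WT. All 3 had far higher Avicel levels in Δclr-5 than in WT, at 24.1, 5.92 and 19.0 times. NCU07853 fell on histidine (-2.40 ± 0.59, adjusted p = 0.00581) and was not called on leucine (0.67 ± 0.56, adjusted p = 0.364) in Δclr-5 over Avicel. NCU05822 fell on histidine (-1.02 ± 0.16, adjusted p = 0.000261) and rose on leucine (1.43 ± 0.16, adjusted p = 5.04e-05) in Δclr-5 over Avicel. NCU06128 fell on histidine (-1.27 ± 0.48, adjusted p = 0.0435) and was not called on leucine (-1.17 ± 0.48, adjusted p = 0.0772) in Δclr-5 over Avicel. The calls of NCU07853 and NCU06128 depended on the cultures, and that of NCU06128 also on the model. The call of NCU07853 was lost without culture 1 on Avicel (-1.71, adjusted p = 0.0822). That of NCU06128 was lost without culture 2 on Avicel, where the change on histidine was 0.080 (adjusted p = 0.728), and without either histidine culture (0.133 without culture 1 and 0.151 without culture 2). It was also lost with a replicate block (adjusted p = 0.0575), under scaling by library size alone (0.133), with no filter (0.0548) and in a fit of only the 6 Δclr-5 libraries (0.112). The mutant cultures of NCU06128 on Avicel were on either side of those on the amino acids. On leucine NCU06128 passed without culture 1 on Avicel (-1.86) and in DESeq2 (-1.20, adjusted p = 0.019). NCU07853 overlaps NCU07852 and NCU05822 overlaps NCU05821.

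The largest fitted change of any member in the mutant, on either amino acid, was that of NCU05499, named after its values were seen. NCU05499 had 413 and 469.9 CPM in Δclr-5 on histidine against 321 and 521 in WT, 1304 and 1480.1 in Δclr-5 on leucine against 788 and 640.1 in WT, and 1.82 and 10.5 in Δclr-5 on Avicel against 0.464 and 0.701 in WT. It was below 1 CPM on Avicel in WT, and all amino acid cultures exceeded all Avicel cultures. The NCU05499 transcript rose over Avicel in the mutant, with changes of 5.85 ± 0.62 (adjusted p = 3.11e-05) on histidine and 7.65 ± 0.67 (adjusted p = 2.33e-05) on leucine. The next gene along chromosome VI is the member NCU05498, 944 bp away.

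The amino acids differed from each other in the mutant. Histidine gave the higher level in 26 members (16.5%, beside 23.6% of all genes tested) and leucine in 62 (39.2%, beside 29.4%), and 70 passed in neither direction. The median log2 fold change of histidine over leucine was -0.41 in the members and -0.04 over all genes. Leaving out 1 library of the pair gave 18 to 19 members higher on histidine and 45 to 58 lower. The lowest value was that of NCU03913, at -3.44 ± 0.54 (adjusted p = 0.000451), with 78.2 and 86.5 CPM in Δclr-5 on histidine against 768 and 853 CPM in Δclr-5 on leucine. By mean, 66 members were higher on histidine than on leucine in Δclr-5 and 91 the other way round.

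The remaining 105 members have no symbol in the reference and no product name in the sources used here. Product names were used here only from the part of the study's gene table with low locus numbers, together with its text, so the lack of a name says nothing of whether a gene is annotated. Their group means ran between 9.72 and 1498 CPM in Δclr-5 on histidine (median 136) and 20.5 and 1784 CPM in WT (median 133), between 10.03 and 3477 CPM in Δclr-5 on leucine (150.5) and 21.9 and 1537 CPM in WT (126), and between 3.02 and 744 CPM in Δclr-5 on Avicel (28.5) and 0.582 and 144 CPM in WT (11.9). The Δclr-5 level was at 0.5 of WT or less in 14 on histidine and 6 on leucine, and at 2 times or more in 1 on histidine and 14 on leucine. Against Avicel in the mutant, 84 of them were higher and 3 lower on histidine, with a median log2 fold change of 1.71 (range -2.40 to 5.85), and 92 were higher on leucine, with a median of 2.01 (range -1.17 to 7.65). Of these 105 genes, 36 met the WT thresholds in the mutant, as did 17 of the 53 named by symbol, product, level or strain ratio.

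Gene lists of the surrounding pathways held few of the 158. Over all genes tested in the mutant, 27.2% were higher and 27.6% lower on histidine than on Avicel, and 19.5% higher and 17.8% lower on leucine, so that several counts of these short lists are near those shares. Of 11 uptake genes, 10 were in the table and 1 is a member, and in Δclr-5 6 were higher and 1 lower on histidine and 6 higher on leucine than on Avicel. Of 15 amino acid metabolism genes in the table, 4 are members (leu-4, NCU02126, NCU06881 and NCU11365), and 3 were higher and 6 lower on histidine and 8 higher on leucine. Many genes of this list were named by the study as lower in Δclr-5 in these same data, so its counts are not independent of them. Among 13 genes tied to nitrogen metabolite repression, with gdh-1 as the only member, 5 were higher and 4 lower on histidine and 5 higher and 1 lower on leucine. Of 5 acu genes of the glyoxylate cycle, gluconeogenesis and acetate use, a list that leaves out the member fbp-1, acu-6 is a member, and 3 were higher and 2 lower on histidine and 2 higher on leucine. Among 11 peptidase genes none is a member, and 6 were higher and 3 lower on histidine and 2 higher on leucine. None of 10 cellulose degradation genes is a member, and 10 were lower on histidine and 9 on leucine in the mutant. Of 10 conidia markers, with ccg-1 as the only member, 4 were lower on histidine, and 3 were higher and 5 lower on leucine.

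By position, the 158 genes made up between 1.17% of the genes of chromosome II and 2.20% of those of chromosome VII in the table. Their median span in the reference was 2214 bp, against 2129 bp over all 9729 genes with a span. Next to each other among the reference genes lay 8 pairs of members, 16 genes or 10.1%, of which 6 pairs were 261 to 944 bp apart and the other 2 were 21545 and 75095 bp apart. The close pairs were NCU02704 and NCU02705, NCU06615 and NCU06616, acd-2 and NCU08925, NCU07153 and NCU17053, NCU05499 and NCU05498, and NCU08183 and NCU08184. NCU06615 and NCU06616 lie 364 bp apart on chromosome IV. NCU06616 had 152 and 134 CPM in Δclr-5 on histidine against 78.1 and 127 in WT, 542 and 602 in Δclr-5 on leucine against 294 and 254 in WT, and 5.13 and 18.1 in Δclr-5 on Avicel against 3.31 and 3.27 in WT. On both amino acids the mutant exceeded WT in both genes in each culture. Of the 158 members, 35 overlap another gene in the reference, and since the strand setting of the counting is not given, reads of such partners cannot be told apart.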

How the data were processed

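RNA-seq was done on 12 libraries. The deposited counts of reads per gene, made by the authors, came from alignment and counting for which the submitters' processing notes name TopHat2 2.0.8b and HTSeq 0.13.5. By the study's methods, paired reads were aligned to predicted transcripts of the OR74A genome (NC12), and reads that fell on a single gene were counted. The strand setting is not given in the sources used here. Gene names, positions and overlaps come from RefSeq's NC12 table. All 158 members matched it, and product names were taken from the study's text and from the part of its gene table used here, which covers low locus numbers only.

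Members, gene lists and tests were chosen with earlier results of these data known. CPM used the column totals. All 12 libraries were fitted with 1 coefficient a group in edgeR 4.0.16 (R 4.3.3, limma 3.58.1), with TMM scaling and edgeR's filter on low counts, which kept 8805 genes and dropped 925. Contrasts within Δclr-5 used the quasi-likelihood F test, with Benjamini-Hochberg adjustment over all genes tested and calls needed an adjusted p below 0.05 and a log2 fold change of 0.5 or more in size. All 158 members passed the filter, into which WT libraries also enter, and matA-1, at 0 in Δclr-5, is given by level only. The residual degrees of freedom were 6. The 6 groups shared 1 estimate of spread per gene, so Δclr-5 on Avicel, whose cultures differed most, was given the same spread as the others. Standard errors are the absolute log2 fold change over the square root of F. The scripts were tested on simulated data.

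Given gene by gene were clr-5, the 10 members of highest CPM on the amino acids in WT, the 8 lowest and 8 highest in Δclr-5 over WT, every member with a symbol or product name, and 3 genes on either side of each threshold. Genes outside this were named after their values were seen. Alternatives were DESeq2 1.42.0, RLE (relative log expression) factors, library size alone, no filter, only the 6 Δclr-5 libraries, a replicate block, adjusted p alone and leaving out each library.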

Additional observations from a re-analysis of the deposited data

Results flagged for a closer look

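On histidine against Avicel, 4 members had both Δclr-5 cultures below and both WT cultures above their Avicel cultures. The difference between the strains was not tested. The ratio of the histidine mean to the Avicel mean, with 1 CPM added, was 0.249 in Δclr-5 against 6.34 in WT for NCU07853. NCU05822 had 0.639 in Δclr-5 against 5.55 in WT. NCU04249 had 0.857 in Δclr-5 against 4.24 in WT. NCU05498 had 0.858 in Δclr-5 against 4.34 in WT. WT had to rise for a gene to be among the 158, so the WT side is fixed by the choice.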

How the results depend on the processing

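Counts of members higher than on Avicel in Δclr-5 stayed within 1.5 times their main values in all alternatives run. Members lower on histidine numbered 2 to 5 over the fits that left out a library (3 with all), and members lower on leucine 0 to 1 (0 with all), where DESeq2 gave 1. Members that met the WT thresholds in Δclr-5 numbered 40 to 83 without 1 library (53 with all). Scaling by library size alone moved the median log2 fold change between Δclr-5 and WT on leucine to 0.30 in the members and 0.29 over all genes. It also turned the sign of uncalled changes, to 0.26 for leu-4 and 0.074 for NCU06881 on histidine, and to 0.051 for ubi and 0.18 for aod-1 on leucine. Leaving out a library turned further signs. On histidine it gave -0.32 to 0.14 for leu-4, -0.10 to 0.20 for aod-1, -0.016 to 2.29 for ncw-6 and -1.96 to 0.080 for NCU06128. On leucine it gave -0.33 to 0.0027 for ubi, -1.34 to 0.67 for aod-1, -0.31 to 1.42 for acw-6 and -1.86 to 0.18 for NCU06128. The cause was not tested. The rule itself gave 119 members on TMM-scaled CPM (116 shared with the 158), 174 with no 1 added, 148 to 176 without 1 WT library and, in an alternative chosen after seeing the data, 159 with the 1 added before the 20 CPM level.

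Replicate numbers were not treated as pairing the cultures, since the correlation of same-numbered deviations ran between -0.24 and 0.37 over 15 pairs of groups and was over 0.1 in 2. With a replicate block, 125 members were higher on histidine and 135 on leucine than on Avicel in Δclr-5, and 25 were higher on histidine than on leucine. With 2 cultures a group and 16797962 to 20381308 counts a library, the spread between cultures rather than counting limits the calls, above all for Δclr-5 on Avicel.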
